A study of Mus musculus with 6 samples.

Results

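The guanylate-binding proteins (GBPs) and the immunity-related GTPases (IRGs) are 2 families of GTP-hydrolysing proteins that cells make in response to interferons. The 10 genes described here, Gbp2 to Gbp9, Irgm1 and Igtp, were picked by gene name from the 54532 genes of the count file, with it known that Gbp7 was among the strongest rises with ALX-5407. Their difference between the groups is therefore given as a description, without a test. The data come from CD4+ T cells of the spleen of young adult male C57BL/6 mice, selected with magnetic beads and activated on plate-bound anti-CD3 with anti-CD28, IL-2, IL-12p70 and anti-IL-4, the Th1 condition that every culture shared. The Th1 group (n = 3) held vehicle, 0.1% DMSO, and the ALX-5407 group (n = 3) held 500 nM of this inhibitor of the glycine transporter GlyT1. The labels give 72 h of culture with the compound, whereas the methods text of the study gives a shorter exposure. The labels call the samples of a group biological replicates and do not say whether they came from separate mice, so the spread between them may in part be technical.

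GBPs are large GTPases related to dynamin that assemble on the membranes around intracellular bacteria and parasites, and some, including Gbp2 and Gbp5, are anchored there by a lipid attached at a C-terminal CaaX motif. IRGs are smaller GTPases that act on the same vacuoles. Irgm1 and Igtp (also called Irgm3) belong to the regulatory IRGs, which sit on the cell's own organelles and hold the effector IRGs in an inactive state there. IFN-γ, the defining cytokine of Th1 cells, induces both families through its receptor, the kinases JAK1 and JAK2 and factors such as IRF1 that act on GAS and ISRE elements near the start sites of these genes.

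Depth was similar among the libraries, from 30801753 to 36727788 counts. The 8 CD4 T cell markers were abundant in each library, with 4153 to 22031 counts per gene. Their sum was 2733 to 2986 CPM (counts scaled to library size) in Th1 and 2330 to 2476 CPM with ALX-5407, without overlap. Of them Cd2 (log2 fold change -0.68), Cd4 (-0.46), Cd3d (-0.39) and Cd3g (-0.35) fell, Cd5 (0.24) rose, and Cd3e, Lck and Cd247 did not pass the test. Of 10 markers of myeloid cells, which also make GBPs, 8 had under 20 counts in every library, among them Lyz2, Csf1r, Itgam, Adgre1, S100a8 and S100a9. Of the other 2, Flt3 had at most 28 counts and Cd68 fell by 1.75 on the log2 scale (adjusted p = 7.26e-08, edgeR). The myeloid sum was 16.4 to 22.0 CPM in Th1 and 6.003 to 6.874 CPM with ALX-5407, and 1.17 to 1.63 and 0.963 to 1.23 CPM without Cd68. The 6 B cell markers summed to 23.6 to 27.6 CPM in Th1 and 16.97 to 20.47 CPM with ALX-5407, where Pax5, Ms4a1 and Cd79a rose and Ebf1 fell. Without Ebf1 the other 5 summed to 7.60 to 8.85 CPM in Th1 and 11.4 to 14.4 CPM with ALX-5407, so the direction of the sum rested on that gene. The sums without Cd68 and without Ebf1 were added after the data were seen. Of 5 NK markers, 3 had under 20 counts in every library. All 5 summed to 12.4 to 16.0 CPM in Th1 and 15.1 to 16.4 CPM with ALX-5407. Of the 2 tested, Eomes was higher (log2 fold change 1.05, adjusted p = 0.000485, edgeR), and the other had a value below 0 and did not pass. The CD8 markers summed to 9.25 to 9.59 CPM in Th1 and 6.71 to 8.87 CPM with ALX-5407, with Cd8a lower (log2 fold change -0.80, adjusted p = 0.0111, edgeR). The part of these cells in the values below was not tested. In bulk RNA, more cells making a transcript and more of it per cell cannot be told apart.

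The windows from 250 bases before to 50 bases after the RefSeq start sites (GRCm38.p6) were searched for the ISRE core, TTTC followed after any 2 bases by TTTC, and the GAS core TTCNNNGAA on both strands. Windows were at hand for 6 members, Gbp2, Gbp3, Gbp5, Gbp7, Irgm1 and Igtp. Each of these 6 genes held an ISRE match, against 3.99% of the 27025 genes with a window. Gbp5, Gbp7 and Igtp also held a GAS match, as did 2582 of the 27025 genes. The 4 windows shown are those of the member with the largest difference (Gbp7), its neighbour with the smallest (Gbp3), the most abundant member (Gbp2) and the more abundant regulatory IRG (Igtp). They are written 5′ to 3′ on the strand of the gene, with ISRE and GAS matches in capitals.
Gbp7, chr3:142530086-142530385, + strand: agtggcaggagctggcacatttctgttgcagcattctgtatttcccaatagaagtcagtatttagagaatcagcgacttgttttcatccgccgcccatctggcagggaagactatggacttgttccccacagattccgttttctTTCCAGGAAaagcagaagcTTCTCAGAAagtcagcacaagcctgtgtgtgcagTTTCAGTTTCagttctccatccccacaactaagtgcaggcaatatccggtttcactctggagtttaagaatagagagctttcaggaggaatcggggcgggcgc
Gbp3, chr3:142559794-142560093, + strand: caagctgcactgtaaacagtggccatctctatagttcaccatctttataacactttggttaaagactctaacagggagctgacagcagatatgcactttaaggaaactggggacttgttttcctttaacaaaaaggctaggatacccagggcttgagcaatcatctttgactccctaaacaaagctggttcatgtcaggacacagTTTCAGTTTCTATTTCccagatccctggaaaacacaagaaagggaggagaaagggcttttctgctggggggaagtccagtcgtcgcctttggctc
Gbp2, chr3:142620413-142620712, + strand: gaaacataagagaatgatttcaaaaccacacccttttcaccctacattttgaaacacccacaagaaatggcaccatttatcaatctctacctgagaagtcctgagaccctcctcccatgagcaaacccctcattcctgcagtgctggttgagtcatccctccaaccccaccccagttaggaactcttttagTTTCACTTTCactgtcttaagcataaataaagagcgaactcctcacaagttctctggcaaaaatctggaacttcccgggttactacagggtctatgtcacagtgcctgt
Igtp, chr11:58199306-58199605, + strand: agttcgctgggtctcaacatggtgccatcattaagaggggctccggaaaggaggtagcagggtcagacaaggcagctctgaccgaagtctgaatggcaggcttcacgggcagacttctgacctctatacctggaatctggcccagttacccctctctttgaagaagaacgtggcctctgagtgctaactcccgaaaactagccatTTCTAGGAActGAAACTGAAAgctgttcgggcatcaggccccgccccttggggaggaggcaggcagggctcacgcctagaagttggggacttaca
The ISRE of Gbp7, TTTCAGTTTC, began 53 bases before the start, below GAS matches at 106 and 87 bases. Gbp3 held the same letters 45 bases before its first start and an overlapping second match at 39 bases, with no GAS match, and its second window had neither. In Gbp2 the match TTTCACTTTC lay at 59 bases. In Igtp an ISRE on the opposite strand, GAAACTGAAA, lay at 34 bases beside a GAS match at 45. Gbp5 had an ISRE at 165 bases and GAS matches at 245 and 52, and Irgm1 had 2 overlapping ISRE matches at 30 and 24 bases. The promoter of Gbp7, with the largest difference, and that of Gbp3, with the smallest, thus both carried TTTCAGTTTC. A match describes letters only and does not show that a factor binds there.

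All 10 members were transcribed in Th1 cells and all had a higher mean CPM with ALX-5407. The difference ran from almost nothing for Gbp3 to 3.66-fold for Gbp7, with a median log2 fold change of 0.805, against 0.0053 over the 15938 genes tested. In each of the 10 the lowest ALX-5407 library lay above the highest Th1 library, which was the case for 28.4% of all genes tested. As the choice of the members used this contrast, nothing is read from that count.

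Gbp7 (ENSMUSG00000040253, GRCm38 chromosome 3, 142530342 to 142550149, + strand), which in macrophages helps to assemble the oxidase on vacuoles with microbes, had 1017, 1002 and 1017 counts in the Th1 cultures and 4271, 4449 and 3924 with ALX-5407. After scaling, this was 31.2, 32.0 and 33.05 CPM against 120.9, 119.3 and 111.9 CPM. The Th1 libraries were nearly identical and the gap to the treated ones was far wider than the spread within either group. Group means were 32.1 ± 0.913 CPM and 117 ± 4.80 CPM (SD, n = 3), and the log2 fold change was 1.87 with a standard error of 0.0742. Among the 12117 genes with a mean of at least 50 counts this was place 38 from the top. The gene's 11 exons are shared over 11.3% of their bases with Gm43802, annotated on the same strand, which was listed at 0 in all libraries.

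Its neighbours on chromosome 3 differed little. Gbp2 (ENSMUSG00000028270, 142620602 to 142638008, + strand) is among the GBPs that gather on the vacuole of Toxoplasma, and its levels were 465.2, 464.0 and 484.9 CPM in Th1 and 563.8, 518.7 and 539.2 CPM with ALX-5407. Means of 471 ± 11.7 and 541 ± 22.6 CPM (SD, n = 3) made this 1.15-fold, or 0.20 on the log2 scale (standard error 0.0686). The groups did not overlap, though the gap between them was smaller than the range of the treated libraries.
Gbp5 (ENSMUSG00000105504, 142493978 to 142522344, + strand), linked to assembly of the NLRP3 inflammasome, had 268.9, 293.6 and 269.7 CPM in Th1 and 323.6, 305.9 and 313.3 CPM with ALX-5407. Th1 replicate 2 stood above the other 2 and came close to the lowest treated library. Its log2 fold change was 0.18 (standard error 0.0697), from 277 ± 14 to 314 ± 8.90 CPM (SD, n = 3 each).
Gbp3 (ENSMUSG00000028268, 142560026 to 142573209, + strand) was the flattest member, at 67.8, 67.9 and 67.3 CPM in Th1 and 68.0, 69.4 and 70.5 CPM with ALX-5407. The highest Th1 library and the lowest treated library lay almost on one another. Its log2 fold change of 0.034 was smaller than its standard error of 0.0691, and with upper quartile scaling the sign turned (-0.02).

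The 4 members on chromosome 5 all had larger differences than Gbp2, Gbp3 and Gbp5. Gbp4 (ENSMUSG00000079363, 105115767 to 105139586, - strand) had 109.4, 113.0 and 124.8 CPM in Th1 and 268.2, 236.1 and 262.2 CPM with ALX-5407. Its means were 116 ± 8.09 CPM and 256 ± 17.1 CPM (SD, n = 3), and the log2 fold change was 1.14 with a standard error of 0.0779. The lowest treated library held nearly 2 times the CPM of the highest Th1 library.
Gbp6 (ENSMUSG00000104713, 105270702 to 105293698, - strand), the member with the fewest counts, had 17.2, 16.7 and 19.7 CPM in Th1 and 43.9, 39.9 and 45.4 CPM with ALX-5407. Every treated library was over 2 times the highest Th1 library. The log2 fold change was 1.27 (standard error 0.0947), from 17.9 ± 1.63 to 43.0 ± 2.84 CPM (SD, n = 3 each).
Gbp6 is the member whose counts are least certain, since 29.0% of its exon bases belong also to Gm43302, which had 2 counts in 1 library and none in the others, and 70.7% of the 50-base stretches of its transcripts recur in other genes, 45.9% in Gbp10. With Gbp6, Gbp10 and Gm43302 summed, an alternative added after the data were seen, the log2 fold change was 1.40.
Gbp9 (ENSMUSG00000029298, 105077630 to 105139539, - strand) had 45.9, 41.1 and 50.9 CPM in Th1 and 81.3, 68.8 and 79.9 CPM with ALX-5407, with a log2 fold change of 0.74 (standard error 0.0909). The means were 46.0 ± 4.89 and 76.7 ± 6.81 CPM (SD, n = 3), a wide spread for its level, and the groups were still apart.
Gbp8 (ENSMUSG00000034438, 105014150 to 105139540, - strand) had 68.1, 71.8 and 75.8 CPM in Th1 and 102.0, 98.5 and 111.8 CPM with ALX-5407, and the smallest difference of this cluster (log2 fold change 0.53, standard error 0.0761). Gbp4, Gbp8 and Gbp9 are annotated with a common upstream end, but no more than 1.77% of the exon bases of any of them are shared with either of the others. Of their 50-base stretches, 18.1% (Gbp8), 8.05% (Gbp9) and 7.78% (Gbp4) recur in other genes. Summed into 1 gene, an alternative added after the data were seen, they had a log2 fold change of 0.901.

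The regulatory IRGs on chromosome 11 stood at nearly the same fold change at very different levels. Igtp (ENSMUSG00000078853, 58199556 to 58207591, + strand) had 197.0, 203.1 and 215.8 CPM in Th1 and 384.8, 361.8 and 390.5 CPM with ALX-5407. Its means were 205 ± 9.58 CPM and 379 ± 15.2 CPM (SD, n = 3), and the log2 fold change was 0.88 with a standard error of 0.0709. Its exons overlap those of Irgm2 on the same strand over 8.01% of their bases. With both genes summed, an alternative added after the data were seen, the log2 fold change was 0.856.
Irgm1 (ENSMUSG00000046879, 48861968 to 48871683, - strand) had 30.9, 26.7 and 35.5 CPM in Th1 and 59.3, 52.5 and 58.8 CPM with ALX-5407, with a log2 fold change of 0.87 (standard error 0.0991). Its means were 31.0 ± 4.44 and 56.9 ± 3.81 CPM (SD, n = 3). The Th1 libraries were the most uneven of any member for their level, and yet its lowest treated library was well above the highest Th1 library. Almost no sequence of Irgm1 recurs elsewhere, with 0.379% of its 50-base stretches found in other transcripts.

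**Figure D1:**
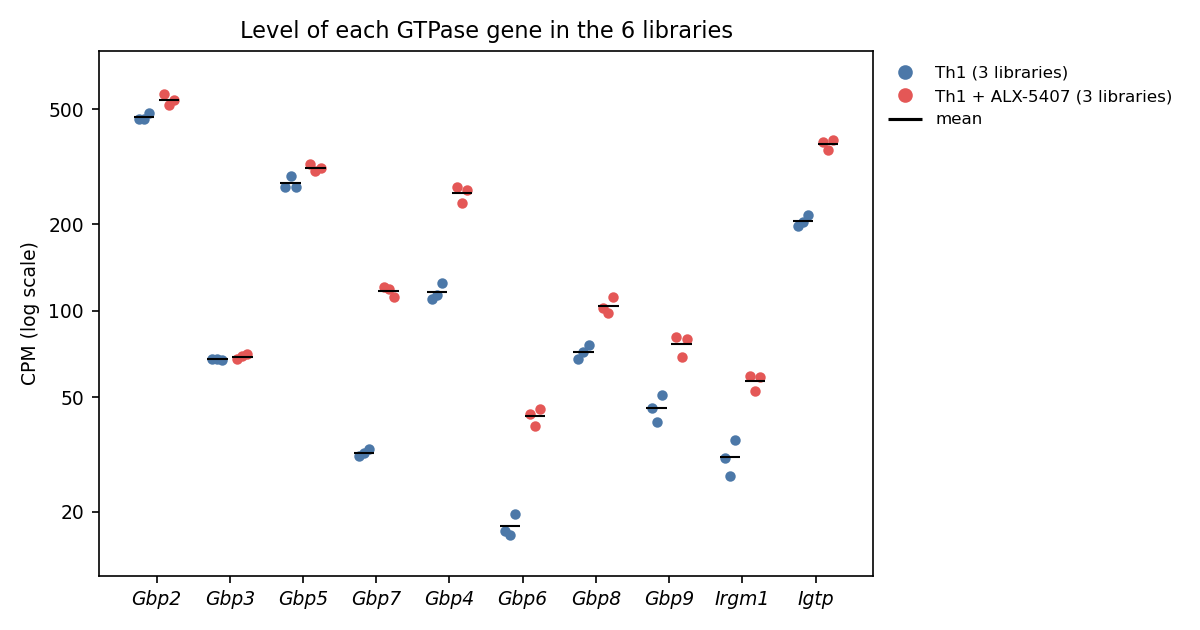
CPM of the 10 genes (log axis) in the 3 Th1 libraries (blue) and the 3 ALX-5407 libraries (red), one point per library, with a black line at each mean. Gbp7 shows the widest gap, from a mean of 32.1 to 117 CPM, while the Gbp3 points of both groups lie between 67.3 and 70.5 CPM.

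Among the treated libraries, ALX-5407 replicate 2 was the lowest for 8 of the 10 members, and in the Th1 group replicate 3 was the highest for 8. The spread within a group was thus partly shared among the members. Without ALX-5407 replicate 2 the median log2 fold change was 0.868, and without Th1 replicate 3 it was 0.852. The lowest value with 1 library left out was 0.708, without Th1 replicate 2.

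The level of a transcript was compared between genes as CPM per kb, since the members' merged exons run from 2022 bases (Igtp) to 7494 bases (Gbp4). In Th1 cells Gbp2 stood first at 187 ± 4.65 CPM per kb, followed by Igtp at 101.5 ± 4.73 and Gbp5 at 41.8 ± 2.11 (SD, n = 3 each). Gbp8 (20.9 ± 1.13) and Gbp3 (20.7 ± 0.112) did not differ beyond their spread. Gbp4 (15.4 ± 1.07) and Gbp9 (8.89 ± 0.945) came next, and Gbp7 (5.71 ± 0.163) and Irgm1 (5.34 ± 0.765) again overlapped, with Gbp6 last at 3.00 ± 0.273 CPM per kb. The place of Gbp6 is uncertain, since 70.7% of its 50-base stretches recur in other genes and its reads may be undercounted. The gene with the largest difference was thus one of the 3 lowest in Th1 cells.
With ALX-5407, Gbp2 was still first (215 ± 8.96 CPM per kb), but Igtp had come close at 187 ± 7.52, so that the ratio of Gbp2 to Igtp went from 1.85 to 1.15. Gbp5 (47.4 ± 1.34) came next. Gbp4 moved past Gbp3 and Gbp8 to 34.1 ± 2.28, a level that overlapped with Gbp8 (30.2 ± 2.00). Gbp7 moved past Gbp9 to 20.9 ± 0.858 CPM per kb and overlapped with Gbp3 (21.2 ± 0.386). The lower end, Gbp9, Irgm1 and Gbp6 in that order, was separate at each step, with the same limit for the place of Gbp6.

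The 10 genes together summed to 411 ± 12.4 CPM per kb in Th1 and 588 ± 22.1 with ALX-5407 (SD, n = 3 each), 1.43-fold. Gbp2 and Igtp made up most of this sum in both groups. The share of Gbp2 was 46.2%, 45.3% and 45.4% in the Th1 libraries and 37.1%, 36.6% and 35.9% in the treated ones. That of Igtp was 24.3%, 24.7% and 25.1% against 31.5%, 31.8% and 32.4%. Gbp7 went from 1.39% ± 0.0068 to 3.56% ± 0.22 and Gbp4 from 3.76% ± 0.15 to 5.79% ± 0.17 (SD, n = 3 each). The share of Gbp8 was 5.08% ± 0.13 and 5.14% ± 0.27, within its spread, although its level was higher. The pool of GTPase transcripts was thus larger and less dominated by Gbp2. Without Gbp2 and Gbp5 the other 8 genes summed to 182 ± 8.48 and 326 ± 13.3 CPM per kb, 1.79-fold.

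**Figure D2:**
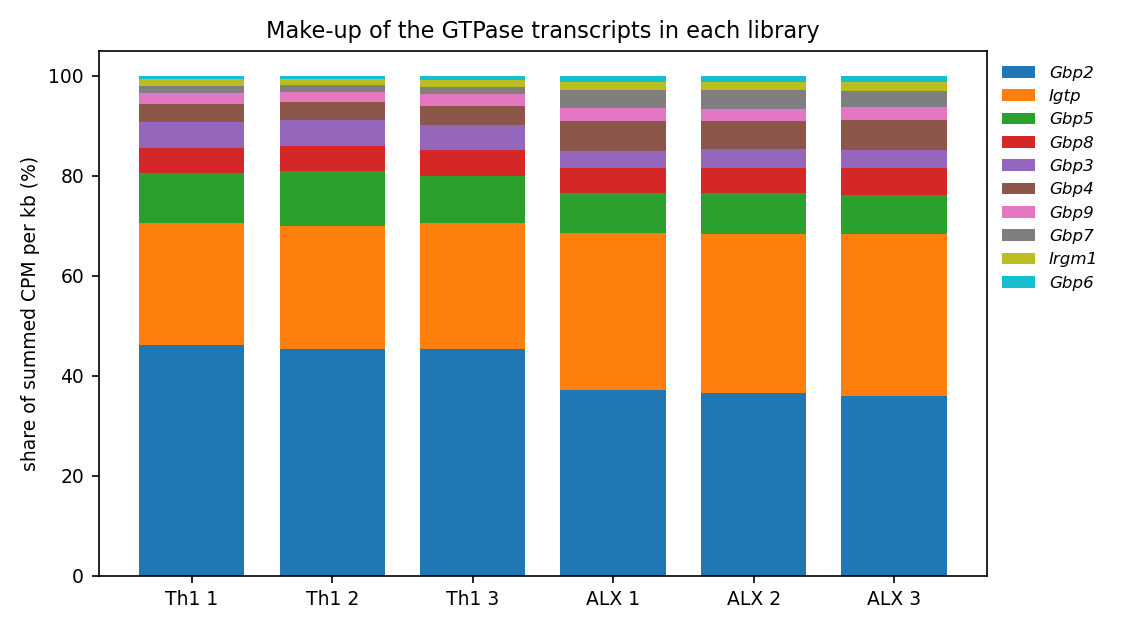
Share of each gene in the summed CPM per kb of the 10 GTPase genes (vertical axis, percent), one bar per library. The Gbp2 segment shrinks from a mean of 45.6% to 36.5% and the Igtp segment grows from 24.7% to 31.9%, with little difference among the 3 bars of a group.

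The GBP genes lie in a cluster on each of 2 chromosomes, and the position within them was compared with the difference between groups. On chromosome 3 the order is Gbp5, Gbp7, Gbp3, Gbp2b and Gbp2. Gbp7 lies between Gbp5 and Gbp3, the flattest genes of the cluster, and the nearest genes tested on either side, Pdlim5 (log2 fold change 0.43) and Kyat3 (0.20), were far below it. On chromosome 5 the order by the lower end of each gene is Gbp8, Gbp9, Gbp4, Gbp10, Gbp6 and Gbp11, with log2 fold changes of 0.53, 0.74, 1.14, 1.63, 1.27 and 0.60. These genes lie on the - strand, and Gbp8, Gbp9 and Gbp4 are annotated with a common upstream end. They thus have no order by start site, and no gradient is read from the values. The largest values, of Gbp10 and Gbp6, may not be independent, as 45.9% of the 50-base stretches of Gbp6 recur in Gbp10. Of the genes at the sides of the cluster, Abcg3 had 0.52 and Lrrc8b 0.041. Summed over the 4 members of each cluster, the log2 fold change was 0.296 on chromosome 3, where Gbp2 and Gbp5 supply most reads, and 0.930 on chromosome 5.

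**Figure D3:**
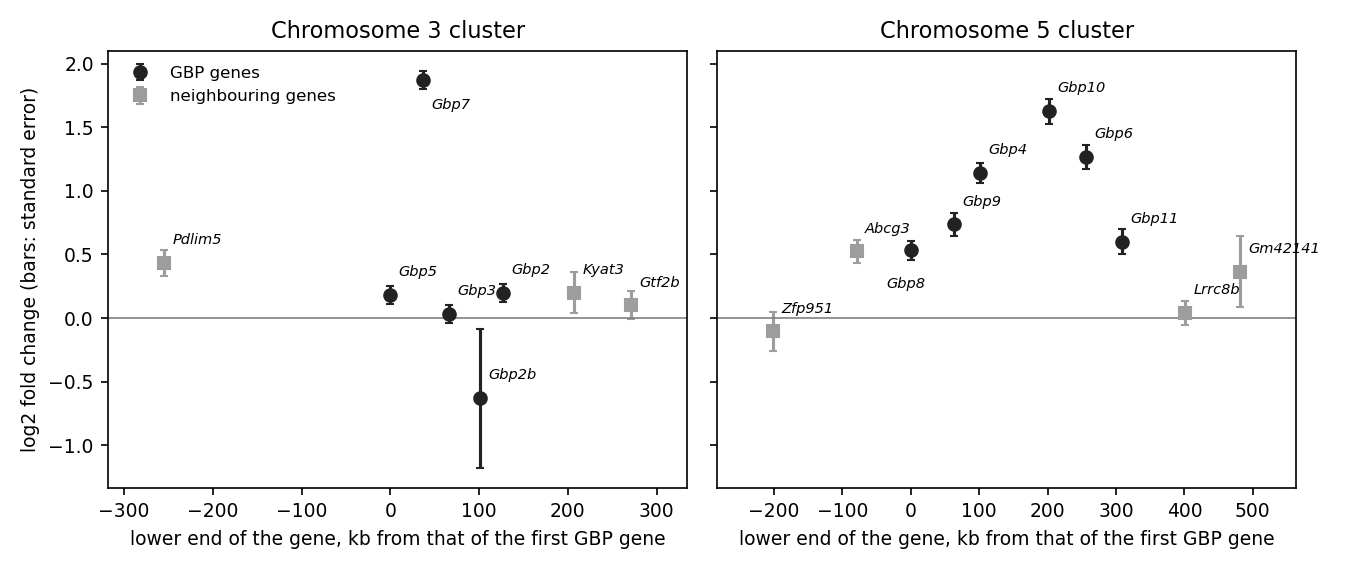
Log2 fold change of the GBP genes (black circles) and of the tested genes beside them (grey squares) in the chromosome 3 and chromosome 5 clusters. The horizontal axis is the lower end of each gene in kb, not its start site. Bars are standard errors. Gbp7 (1.87) stands alone on chromosome 3, whereas on chromosome 5 the GBP genes run from Gbp8 (0.53) to Gbp10 (1.63) in value. A more distant neighbour, Gm2451, is not drawn.

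The rest of the GBP and IRG families, outside the 10 members, was tested in the fit over all genes. Of 17 listed genes 16 were tested, and 10 rose and 2 fell at an adjusted p under 0.05, where 24.5% and 23.2% of all genes tested did. The median log2 fold change was 0.694. With an absolute log2 fold change over 1 required as well, 6 rose and 1 fell, beside 3.36% and 6.68% of all genes. This list and those below were drawn up with earlier results of these data known, so their shares are given as a description.
The effector IRGs, which load onto vacuoles and break them, were among those that rose. Gm12250 (Irgb10) had 602, 505 and 551 counts in Th1 and 1756, 1789 and 1808 with ALX-5407 (log2 fold change 1.51, standard error 0.0876, adjusted p = 2.27e-09, edgeR). Iigp1 (Irga6) had 407, 400 and 443 counts and then 1353, 1209 and 1384 (1.47, standard error 0.104, adjusted p = 1.7e-08). The treated libraries were over 2 times the highest Th1 library for both. Ifi47 rose by 0.88, Tgtp1 by 1.24 and Tgtp2 by 0.77 on the log2 scale, although Tgtp1 and Tgtp2 are near-identical copies whose reads may be split. Gm4951 (2.54) and F830016B08Rik (2.08) had the largest values, from at most 20 and 14 counts in a Th1 library. These 2 genes passed the filter on low counts only through the ALX-5407 libraries, which favours a rise. Both are among the genes counted above beyond a log2 fold change of 1, and nothing is read from their calls.
Irgm2, the remaining regulatory IRG, rose by 0.62 (adjusted p = 2.43e-05, edgeR), less than Igtp and Irgm1 in value. This difference between genes was not tested. Gbp10 rose by 1.63 and Gbp11 by 0.60. Gbp2b, the remaining chromosome 3 gene, had only 4 to 32 counts (log2 fold change -0.63, standard error 0.548, adjusted p = 0.37, edgeR), so that at this depth no difference was detectable.
The genes that fell were 9930111J21Rik2 (log2 fold change -0.47, adjusted p = 0.00139, edgeR) and Irgc1, a testis gene with 11 to 16 counts in Th1 and 2 in each treated library (adjusted p = 0.00132). Irgc1 passed the filter only through the Th1 libraries, which favours a fall. Irgq (0.029, adjusted p = 0.798), 9930111J21Rik1 (0.18, adjusted p = 0.39) and Gm12185 (0.50, adjusted p = 0.0703) did not pass the edgeR test. Of 11 of these family genes with a promoter window, 7 held an ISRE match.

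**Figure D4:**
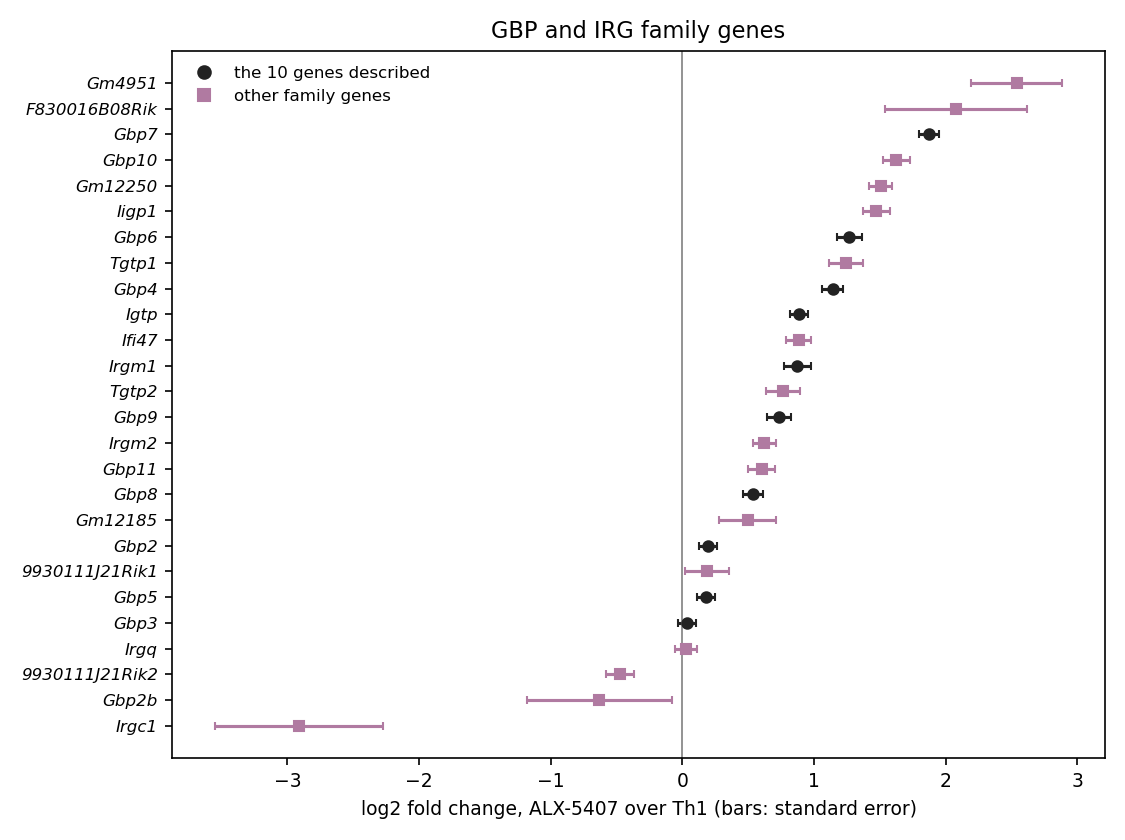
Log2 fold change (horizontal axis) with its standard error for the 10 genes described (black circles) and the 16 other GBP and IRG genes tested (purple squares). Most of both sets lie right of 0, from Gm4951 (2.54) to Irgq (0.029), and 9930111J21Rik2, Gbp2b and Irgc1 lie left of it.

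To set these levels beside the pathway that induces them, the ligand, receptors, kinases and factors upstream were read from the same fit. Of 19 listed genes 18 were tested, 5 rose and 7 fell, with a median log2 fold change of -0.091. The 27.8% that rose was close to the 24.5% of all genes tested, and 38.9% fell beside 23.2%. Ifng itself had 17955, 20848 and 23514 counts in Th1 and 14134, 14297 and 12765 with ALX-5407, and it fell by 0.79 on the log2 scale (standard error 0.0967, adjusted p = 5.75e-06, edgeR). Both chains of its receptor fell as well, Ifngr1 by 0.55 (adjusted p = 2.59e-05) and Ifngr2 by 0.73 (adjusted p = 3.77e-05). The ligand and receptor genes thus differed in the opposite direction to the GTPase genes.
Of the kinases, Jak1 rose by 0.24 (adjusted p = 0.00948, edgeR), and Jak2 was at -0.13 (adjusted p = 0.213). Stat2, a factor of type I interferon signalling, rose by 0.37 (adjusted p = 0.00051). Irf1 had 4266, 4092 and 4032 counts in Th1 and 4832, 4653 and 4475 with ALX-5407, a log2 fold change of -0.012 after scaling (standard error 0.0687, adjusted p = 0.902, edgeR). Irf8 rose by 0.23 (adjusted p = 0.0135), a call that was lost in 4 of 13 alternatives, among them those without Th1 replicate 2, ALX-5407 replicate 1 or ALX-5407 replicate 2 (highest adjusted p = 0.0727). Of the Th1 factors, Tbx21 rose by 0.34 (adjusted p = 0.000941) and Stat4, which carries the IL-12 signal, fell by 1.16 (adjusted p = 5.55e-08) and alone among these 18 genes passed with a log2 fold change beyond 1 in size. The other genes that passed were Il12rb1 (0.89), higher, and Il18r1 (-0.76), Il18rap (-0.57) and Ifnar1 (-0.32), lower.
Of 10 negative regulators, 4 rose and 2 fell, where 24.5% and 23.2% of all genes tested did, so the share that fell was near that background. Socs1, the inhibitor of JAKs that IFN-γ induces, rose by 0.44 (adjusted p = 0.00133, edgeR), while Ptpn2, a phosphatase of JAK1, fell by 0.75 (adjusted p = 2.4e-07) and Usp18, a brake of type I interferon signalling, by 1.12 (adjusted p = 2.22e-07). Trim28 (0.61), Cish (0.34) and Ptpn11 (0.21) rose, the last with a call lost in 6 of 13 alternatives, among them those without Th1 replicate 1, Th1 replicate 3 or any 1 of the ALX-5407 libraries (highest adjusted p = 0.105).

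**Figure D5:**
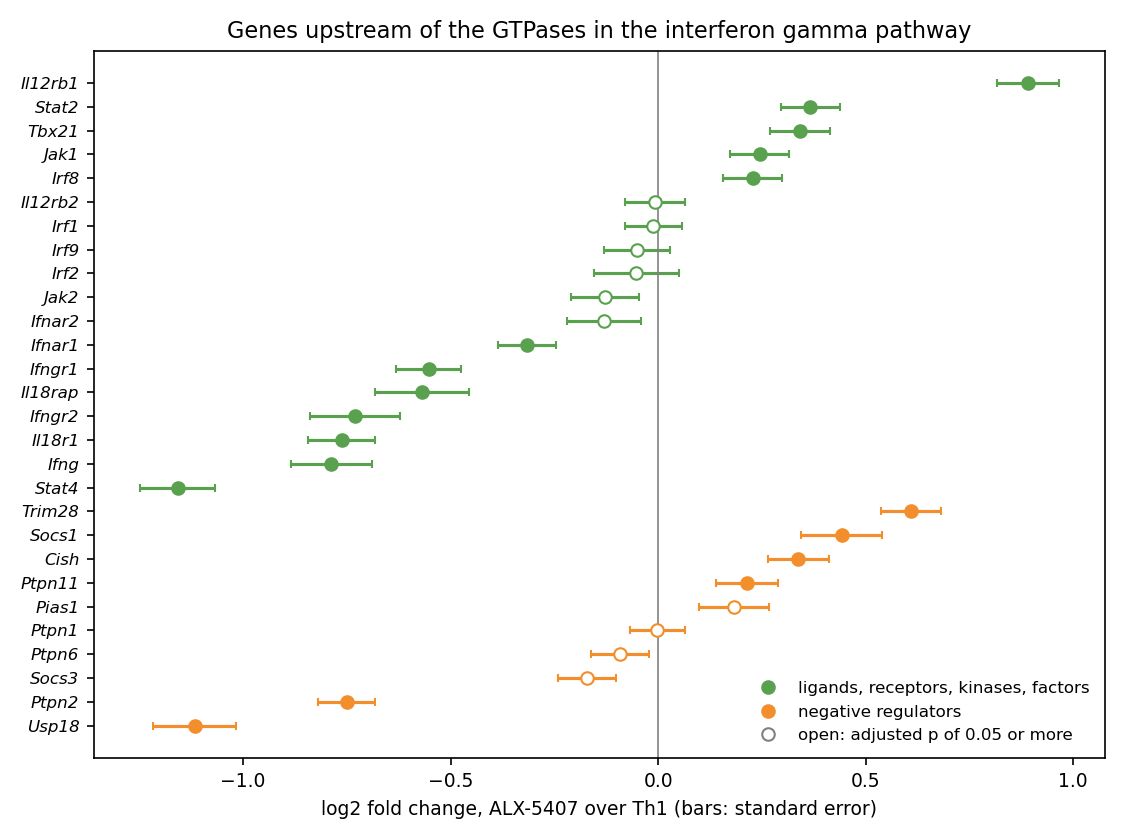
Log2 fold change with standard error for 18 upstream genes (green) and 10 negative regulators (orange), filled where the adjusted p was under 0.05. Ifng (-0.79), Ifngr1 (-0.55) and Ifngr2 (-0.73) lie left of 0, Stat2 (0.37) and Socs1 (0.44) right of it, and Irf1 (-0.012) on it.

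Among other targets of IFN-γ that are not GTPases, 32 of 36 listed genes were tested. Of these 53.1% (17) were higher and 9.38% (3) lower, beside 24.5% and 23.2% of all genes tested, and their median log2 fold change was 0.22. Cd74, the invariant chain of MHC class II, rose by 1.51, Rnf213 by 1.21, Parp14 by 1.00, Wars by 0.98, Zbp1, a sensor of nucleic acids, by 0.90 and Tap2 by 0.56. Samhd1 fell by 0.66, Sp110 by 0.37 and Psme1 by 0.30.
Targets typical of type I interferon numbered 29, of which 25 were tested, with 17 (68%) higher and 3 (12%) lower, beside the same 24.5% and 23.2% of all genes, and a median log2 fold change of 0.602. Trim30a rose by 0.78, Adar by 0.66, Ifit2 by 0.86, Eif2ak2 by 0.59, Oas3 by 0.59 and Cmpk2 by 2.55, the last from at most 11 counts in Th1. Ifitm3 fell by 2.67, from 1262, 1392 and 1105 counts to 244, 246 and 180, Dhx58 by 0.72 and Ifi27l2a by 0.42, the last with a call lost without Th1 replicate 1 or ALX-5407 replicate 3 (highest adjusted p = 0.0764, edgeR).

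The 5 genes whose profile over the 6 libraries was closest to that of Gbp7, by the root mean square difference of centred log2 CPM among 12107 genes, were Ston2 (0.120), Themis2 (0.125), Klf10 (0.126), Gbp10 (0.127) and Prag1 (0.127). Of these only Gbp10 belongs to the GBP family, and it lies on another chromosome than Gbp7. Ston2 went from 9.55 ± 1.10 to 32.1 ± 0.969 CPM and Prag1 from 9.40 ± 0.733 to 39.1 ± 1.71 CPM (SD, n = 3 each). This likeness rests mostly on the step between the groups, which the measure shares with the fold change.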

How the data were processed

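RNA of 6 cultures was sequenced. The authors deposited raw counts of reads per gene, neither normalized nor pooled, with gene lengths. The submitters' processing notes name fastp, HISAT2 2.0.5, featureCounts 1.5.0-p3 and mm10. The strand setting, the annotation release and the treatment of reads with several matches are not given in the sources used here, so values of genes with close copies or shared exons are uncertain. The labels describe capture on poly-T beads, the methods text depletion of ribosomal RNA.

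Counts were analysed with edgeR 4.0.16 in R 4.3.3 (filterByExpr with a minimum count of 10 and a minimum total of 15, TMM scaling, quasi-likelihood test, two-sided, Benjamini-Hochberg adjustment across the 15938 genes that passed). All 10 members passed. The standard error is the log2 fold change over the root of F. CPM per kb uses the deposited gene length, which equals the merged GENCODE M21 exons of each member. The procedure was run on simulated counts in which few genes changed, equally in each direction. Many more genes were called in these data, so that run does not test the scaling used here.

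The members and gene lists were chosen with earlier results of these data known. Genes named are the 10 members, every tested gene of the other GBP and IRG list, Ifng, Ifngr1, Ifngr2, Jak1, Jak2, Irf1, Irf8, Tbx21 and Socs1, up to 6 genes per direction with the smallest p in each other list, and the 5 nearest profiles. Genes beside the clusters and genes overlapping members are named by position. One listed gene, Gm17757, was not matched by name, and one upstream gene is not reported here. Alternatives were other scalings, DESeq2 1.42.0 (the test that the methods text names), other filters, a replicate block and each library left out. Replicates differed by more than counting noise (chi-square over degrees of freedom 5.35 to 20.2). Promoter sequences are from RefSeq (GRCm38.p6). Figures were drawn with matplotlib 3.10.9.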

Additional observations from a re-analysis of the deposited data

How the results depend on the processing

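Each of the 10 members was fitted under 13 alternatives, which gave 130 values, and 10 of these moved by more than 1 SD of the replicates. Gbp3 turned sign with upper quartile scaling (-0.0199), and its other alternatives ran to 0.0924. Gbp7 ranged from 1.82 to 1.93, Gbp4 from 1.09 to 1.20, Gbp6 from 1.21 to 1.33, Igtp from 0.831 to 0.943 and Irgm1 from 0.765 to 0.966. The median over the members lay between 0.708 and 0.868 with 1 library left out. With counts summed over the cluster, the chromosome 3 value went from a median of 0.189 to 0.296, as Gbp2 and Gbp5 hold most of its counts. Of 91 genes called in the other lists, 72 were called in every alternative in which they were tested and 19 lost the call in at least 1, and 9 of 54 uncalled genes gained it. None of these reversed with a call.

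Requiring a log2 fold change over 1 as well left 536 higher and 1064 lower genes of 3910 and 3695, 6 and 1 other GBP and IRG genes, 0 and 1 upstream genes, 0 and 1 negative regulators, 4 and 0 other IFN-γ targets, 4 and 1 type I genes, 4 higher large GTPases, and 0 and 0 autophagy, prenylation and inflammasome genes. With at least 50 counts in 3 libraries, 1 rather than 2 other GBP and IRG genes fell, as Irgc1 was no longer tested. The higher genes of the autophagy, prenylation and inflammasome lists went from 3 to 5 by library size alone, and from 1 to 4 with 1 library left out, at 1 without Th1 replicate 2 and without ALX-5407 replicate 2, and the cause was not tested.

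With the replicate number as a block, the members' median was 0.81 and the other GBP and IRG genes stayed at 10 higher and 2 lower. The correlation of deviations between libraries of the same number was 0.0462, 0.046 and 0.174. Libraries of different numbers were not compared, so whether the numbers pair the cultures cannot be told from these values. With the block 4071 genes were higher and 3833 lower, beside 3910 and 3695 without it. The block moved no count by over 1.5 times. Gene-level depth limits Gbp2b, Gm4951, F830016B08Rik and Irgc1, with few counts.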

Other observations

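Machinery that places the GTPases on membranes or acts after them was read from the same fit. Of 15 autophagy genes, most of them in the conjugation system that both families need to find their targets, 6 fell and 0 rose in edgeR's test at an adjusted p under 0.05 (0 rose in DESeq2 too, and 1, Ulk1, at an unadjusted p under 0.05). Ulk1, Becn1 and Sqstm1 were in the list but are not part of the conjugation system. Over all genes tested 23.2% fell and 24.5% rose. Gabarap fell by 0.75, Atg12 by 0.62 and Atg16l1 by 0.54 on the log2 scale, Gabarapl1, Atg3 and Atg10 fell as well. Of 8 genes for prenylation of the CaaX motif that anchors Gbp2 and Gbp5, 3 (37.5%) rose and 0 fell (0 in DESeq2 too, and 0 at an unadjusted p under 0.05): Icmt by 0.32, Fdps by 0.74 and Ggps1 by 0.24. The call of Fdps was lost without Th1 replicate 2 or ALX-5407 replicate 2 (highest adjusted p = 0.0708), and that of Ggps1 in 8 of 13 alternatives (highest adjusted p = 0.171). Of 8 tested inflammasome genes, Aim2 fell by 0.74 and Casp4 by 0.35, and this 25% was near the 23.2% of all genes.

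Among 13 tested large GTPases outside the GBP and IRG families, 10 (76.9%) rose, beside 24.5% of all genes tested, and 0 fell, beside 23.2% (0 also at an unadjusted p under 0.05 in edgeR and 0 at an adjusted p in DESeq2). The 10 became 8 with upper quartile scaling, and 7 without Th1 replicate 2 or without ALX-5407 replicate 3. The risen genes named here kept their calls in every alternative in which they were tested. Of the interferon-inducible ones, Gvin1 rose by 1.54, Gm1966 by 1.23, Gm4070 by 1.11 and Mx1 by 2.98, the last from at most 6 counts in a Th1 library. Mx1 passed the filter on low counts only through the ALX-5407 libraries, which favours a rise. Mx2 did not pass the test (log2 fold change 0.71, adjusted p = 0.172, edgeR, with groups that overlapped). Of the others, Dnm2 rose by 0.40 and Opa1 by 0.28. The very large GTPase genes Gvin1, Gm1966 and Gm4070 are close copies, and their reads may be split.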
